A study of Mus musculus with 4 samples.

Results

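The genes of zinc, iron, copper and magnesium handling were compared between stem cells and non-stem cell epithelia of the mouse submandibular gland, a salivary gland. They were chosen by name: the Slc39a and Slc30a zinc transporters, the Slc11a and Slc40a iron transporters, the Slc31a copper transporters, the Slc41a magnesium transporters, metallothioneins Mt1 to Mt4 and the factor Mtf1. This gave 37 genes of the 36163 genes on the array, each read from its brightest probe over both groups. Cells of both groups were freshly sorted by flow cytometry from C57BL/6 mice aged 8 to 10 weeks, with no treatment or transgene in the labels, and the sources used here do not name the sort antigens. Their RNA was hybridised to 4 Agilent arrays with a single dye, 2 per group. The labels do not state whether replicates are different animals or sorts, and the p-values therefore reflect only how far these samples spread, which may be technical.

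Cells keep free zinc low by moving it between compartments. Slc39a proteins (Zip) bring zinc into the cytosol from outside or from organelles, and Slc30a proteins (ZnT) move it out of the cytosol, across the plasma membrane or into the secretory pathway and vesicles. Metallothioneins are small cysteine-rich proteins that bind zinc and copper, and Mtf1 is the zinc-sensing factor that switches on their genes through metal response elements. Iron leaves cells through a single known exporter, ferroportin, and copper enters through Ctr1.

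All levels are log2 signals relative to the 75th percentile of the same array, and a gene passed the test when its limma p, adjusted over 17306 genes, was under 0.05. That percentile stood at signals of 34.0 and 48.9 on the stem cell arrays against 84.2 and 71.1 on the non-stem arrays. The 10 spike-in controls, RNAs added in fixed amounts, were all higher on both stem cell arrays after this scaling, by a median of 2.25, so each difference is relative to the other genes and not an amount per input RNA. Scaled on the spike-ins instead, a setting chosen after seeing the data, 1 of the 28 metal handling genes tested rose, Slc39a4, and 26 fell. The epithelial markers Epcam and Cdh1 were well above background on all 4 arrays. Epcam was lower in stem cells (difference -1.22, limma adjusted p = 0.0083), while Cdh1 (0.28) did not pass. Markers of gland cell types differed between the groups as well. Of 8 acinar markers 5 fell and 1 rose in stem cells, with summed scaled signals of 2948 to 3260 against 6470 to 6922. The duct markers rose in 6 of 6 cases. Of 6 basal and myoepithelial markers 3 rose, Krt5, Krt14 and Krt17, while Trp63 (0.56), Acta2 (-0.11) and Cnn1 (-0.36) did not pass. Of 6 markers of the granular convoluted tubule, a secretory duct segment, 3 rose and Egf fell, with sums of 1357 to 1380 against 227 to 229. Single markers of other cell types moved as well. Of 5 fibroblast markers 2 were tested, and Dcn rose by 2.15 while Col1a2 (-0.49) did not pass. Of 6 endothelial markers 3 were tested, and Cd34 was at least 3.35-fold higher while Pecam1 (-0.50) and Kdr (0.40) did not pass. Of 5 mast cell markers 2 were tested, and Tpsb2 rose by 0.63 while Mrgprb1 was at least 28.0-fold lower. Of 4 white blood cell markers 2 were tested and 0 passed the limma test, with 0 at an unadjusted p under 0.05. The red cell markers fell in 5 of 5 tested cases, with differences of -2.23 to -1.83 in 4 of them and Slc4a1 at least 9.83-fold lower, and no array had Epb4.2 well above background. Of 8 macrophage markers 0 passed the limma test (2 had an unadjusted p under 0.05) and 4, Emr1, Cd68, Lyz2 and Cd163, were not well above background. The part of these markers in the results was not tested. In such bulk samples, fewer cells of a type and less RNA per cell cannot be told apart.

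Of the 37 metal handling genes, 28 had a signal well above background on at least 2 arrays and were tested. In stem cells 5 rose (Slc39a4, Mt2, Slc40a1, Mt1 and Slc30a1) and 13 fell. Over all genes tested, 31.1% passed the test, 14.4% higher and 16.7% lower. The median difference of the 28 genes was -0.50 on the log2 scale, beside -0.01 over all genes tested. Of the 28 tested genes, 14 passed the threshold with at least a 2-fold difference, as did 16.6% of all genes tested. The groups did not overlap for 24 of the 28, where 71.1% of all genes tested did not overlap either. Slc41a3 passed the filter through the non-stem arrays alone, so these counts are over the genes that passed and are given as a description.

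**Figure D1:**
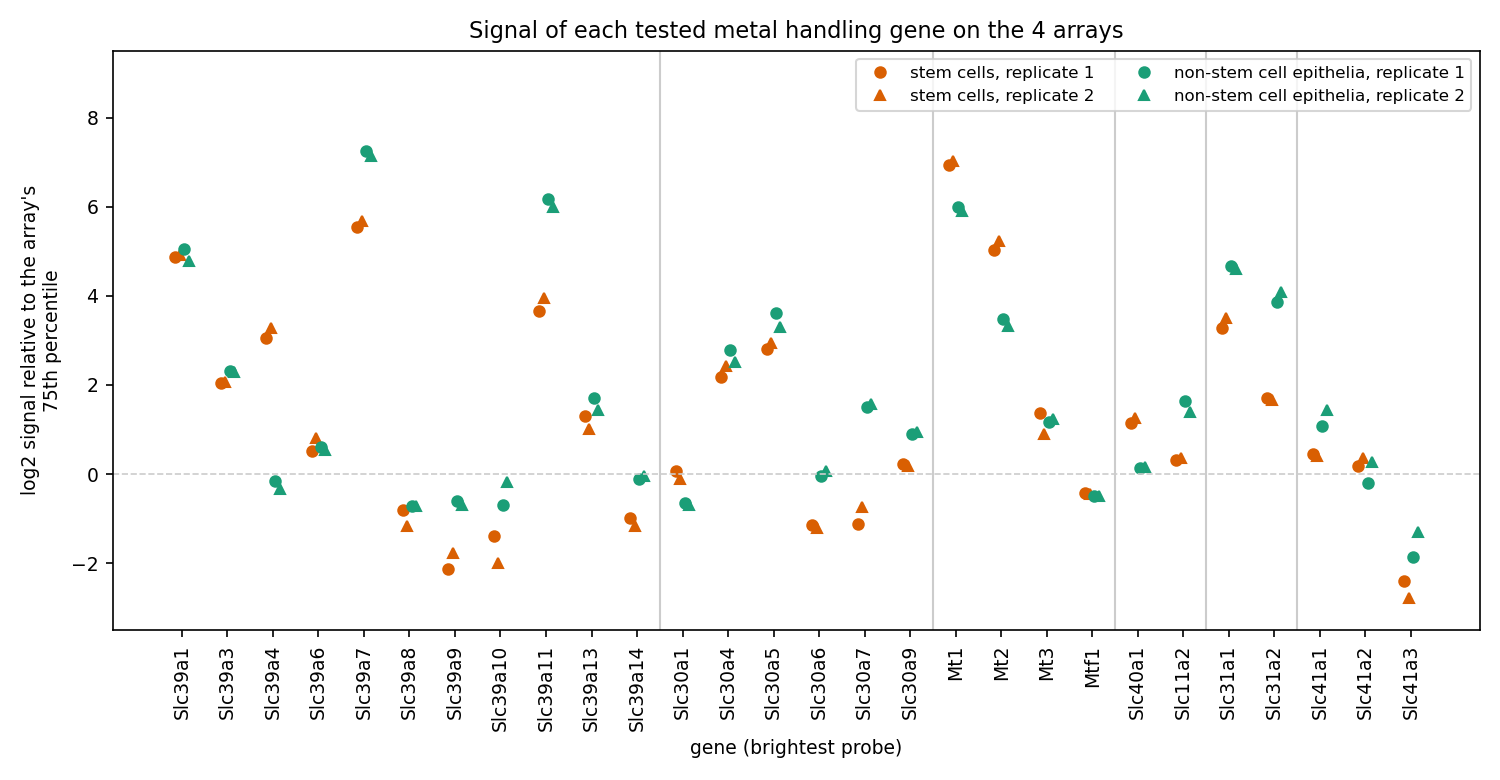
Level of each of the 28 tested genes on the 4 arrays, as log2 signal relative to the array's 75th percentile (vertical axis), with genes along the horizontal axis and grey lines between the families. Slc39a4, Mt1, Mt2 and Slc40a1 have both stem cell arrays (orange) above both non-stem arrays (green), while Slc39a7, Slc39a11, Slc30a7 and Slc31a2 have them below.

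The remaining 9 genes were well above background on none of the 4 arrays. They were the zinc importers Slc39a2, Slc39a5 and Slc39a12, the vesicle exporters Slc30a2, Slc30a3 and Slc30a8, the manganese exporter Slc30a10, the phagosome iron transporter Slc11a1 and the metallothionein Mt4 of stratified epithelia. Slc30a3 is known from synaptic vesicles and Slc30a8 from insulin granules.

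Among the zinc importers, Slc39a4 stood higher in stem cells and 5 relatives stood lower. Slc39a4 (Zip4), the plasma membrane importer that takes up dietary zinc in the gut, had levels of 3.06 and 3.29 on the stem cell arrays against -0.15 and -0.33 on the non-stem arrays. Both stem cell values lay far above both non-stem values. The difference was 3.41 ± 0.17 (SE, n = 2 per group), a 10.6-fold rise with an adjusted limma p of 0.00032. Its probe lies at chr15:76442866-76442925 (mm9). Before any scaling its signals were 283 and 476 in stem cells against 76.0 and 56.6 in non-stem cell epithelia, so the order did not depend on the scaling. With normexp background correction the difference was 2.15, and on the spike-in scale it was 1.16.

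The brightest zinc importers of internal membranes fell. Slc39a7 (Zip7), which releases zinc from the endoplasmic reticulum, had levels of 5.54 and 5.68 in stem cells against 7.24 and 7.15 in non-stem cell epithelia. Slc39a11 (Zip11), reported in the Golgi and nucleus, had levels of 3.65 and 3.95 against 6.17 and 5.99. For both genes the stem cell arrays were the lower pair, and the groups did not overlap. Slc39a7 fell by 1.58 ± 0.15 (2.99-fold, limma adjusted p = 0.0020), with its probe at chr17:34165279-34165338. Slc39a11 fell by 2.28 ± 0.18 (4.86-fold, limma adjusted p = 0.0011), with its probe at chr11:113106171-113106230.

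Dimmer importers fell as well. Slc39a9 (Zip9), found in the Golgi and at the cell surface, had levels of -2.13 and -1.78 in stem cells, where 1 of 2 arrays was well above background, and -0.60 and -0.69 in non-stem cell epithelia. Its difference was -1.31 ± 0.18, with an adjusted limma p of 0.0061. Slc39a10 (Zip10), a plasma membrane importer, had levels of -1.40 and -2.00 against -0.69 and -0.19. The pairs did not overlap, yet the replicates of each group spread widely, and the difference was -1.26 ± 0.28 (limma adjusted p = 0.023). Slc39a14 (Zip14), which carries zinc, manganese and iron, differed by -0.999 ± 0.16 (limma adjusted p = 0.0085). With non-stem cell epithelia replicate 1 or 2 left out, the adjusted limma p became 0.061 and 0.064 for Slc39a9, 0.072 and 0.154 for Slc39a10 and 0.062 and 0.079 for Slc39a14. With normexp the 3 differences shrank to -0.24, -0.30 and -0.26 and did not pass, and Slc39a10 also lost its call when the percentile was taken over detected probes.

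The other 5 tested importers did not pass the test. Slc39a1 (Zip1), a widely expressed plasma membrane importer, had levels of 4.87 and 4.92 in stem cells against 5.06 and 4.78 in non-stem cell epithelia. The stem cell values fell between the non-stem values, and the difference was -0.03 ± 0.17 (limma adjusted p = 0.910). The differences of Slc39a3, Slc39a6, Slc39a8 and Slc39a13 lay between -0.42 and 0.09. Over the family, 1 of 11 tested genes rose and 5 fell, and the median difference was -0.42. Over all genes tested, 14.4% were higher and 16.7% lower, with a median of -0.01.

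**Figure D2:**
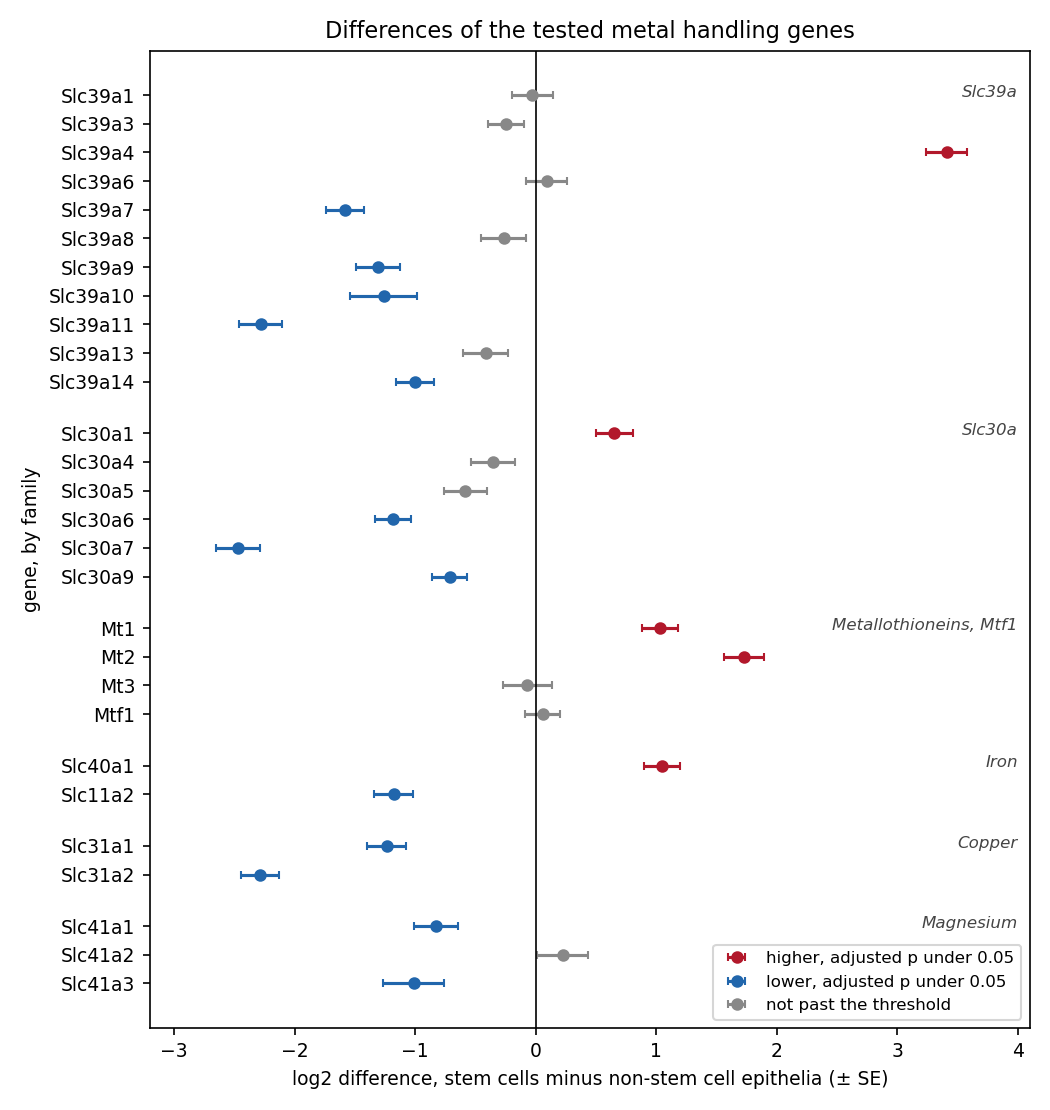
Difference between stem cells and non-stem cell epithelia for the 28 tested genes, on the log2 scale (horizontal axis), by family, with bars of 1 SE from limma over 2 arrays per group. Slc39a4 stands farthest to the right at 3.41, and Slc30a7 farthest to the left at -2.47.

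Of the 6 zinc exporters tested, the plasma membrane exporter rose and 3 exporters of internal membranes fell, where 31.1% of all genes tested passed. Slc30a1 (ZnT1), which expels zinc from the cell and is a known Mtf1 target, had levels of 0.06 and -0.10 in stem cells against -0.65 and -0.70 in non-stem cell epithelia. The stem cell arrays were the higher pair, and the difference was 0.65 ± 0.16 (1.57-fold, limma adjusted p = 0.029). Its probe lies at chr1:193736760-193736819. The call rested on few arrays: without stem cells replicate 1 the adjusted limma p was 0.069, and without non-stem cell epithelia replicate 1 or 2 it was 0.115 and 0.150. With normexp the difference was 0.30 and did not pass.

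Slc30a7 (ZnT7), which loads zinc into the Golgi for enzymes such as alkaline phosphatase, showed the largest fall of the 28 tested genes. Its levels were -1.11 and -0.74 in stem cells against 1.52 and 1.58 in non-stem cell epithelia. The non-stem arrays nearly coincided and lay well above the stem cell arrays. It fell by 2.47 ± 0.19 (5.54-fold, limma adjusted p = 0.00092), with its probe at chr3:115649542-115649601. Dimmer probes of the same gene had differences of -2.63 and -1.85. With normexp the difference was -1.38, still past the threshold.

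Slc30a6 (ZnT6) works as a pair with Slc30a5 (ZnT5) in the early secretory pathway. Slc30a6 had levels of -1.14 and -1.22 in stem cells against -0.06 and 0.06 in non-stem cell epithelia, without overlap. It fell by 1.18 ± 0.15 (2.27-fold, limma adjusted p = 0.0048). Slc30a5 differed by -0.59 ± 0.18 and did not pass (limma adjusted p = 0.058). Slc30a9, a mitochondrial zinc exporter, had the third lower call of the family, at -0.71 ± 0.15 (limma adjusted p = 0.019), and its dimmer probe differed by -0.57. Slc30a4 (ZnT4), of endosomal vesicles, differed by -0.35 (limma adjusted p = 0.197). The call of Slc30a6 was lost without non-stem cell epithelia replicate 2 (limma adjusted p = 0.058) and with normexp (difference -0.37), and that of Slc30a9 without replicate 1 or 2 of that group (0.093 and 0.115).

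The metallothioneins Mt1 and Mt2 rose relative to other genes, while their regulator Mtf1 did not pass the test. Mt1 had levels of 6.94 and 7.02 in stem cells against 6.00 and 5.90 in non-stem cell epithelia. Mt2 had levels of 5.03 and 5.23 against 3.48 and 3.33. Both genes had tight pairs that did not overlap. Mt1 was 1.03 ± 0.15 higher (2.04-fold, limma adjusted p = 0.0070) and Mt2 was 1.73 ± 0.16 higher (3.31-fold, limma adjusted p = 0.0019). Without non-stem cell epithelia replicate 1 or 2, the adjusted limma p of Mt1 became 0.053 and 0.070 while Mt2 kept its call, and normexp gave 0.53 for Mt1 and 1.20 for Mt2. On the spike-in scale both turned, to -1.22 for Mt1 and to -0.52 for Mt2, which did not pass (limma adjusted p = 0.217).

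The signals before scaling show how the 2 genes differ in this respect. Mt1 read 4174 and 6341 in stem cells against 5391 and 4248 in non-stem cell epithelia, so the unscaled pairs overlapped. Mt2 read 1111 and 1837 against 938 and 715, and the unscaled stem cell signals were the higher ones. Of the 5 genes that rose, 2 had both unscaled stem cell signals above both non-stem signals, Slc39a4 and Mt2. Of the 13 that fell, 13 had both unscaled stem cell signals below both non-stem signals. This order was fixed in advance. The groups did not overlap after scaling for any of these genes, and the percentile used for scaling was lower on both stem cell arrays. The count therefore adds no evidence for the falls and cannot be weighed against the count for the genes that rose.

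Mtf1 had levels of -0.44 and -0.44 in stem cells against -0.50 and -0.49 in non-stem cell epithelia. These nearly equal values gave a difference of 0.06 ± 0.15 (limma adjusted p = 0.788), and its dimmer probes were not well above background. Mt3, a metallothionein best known from the brain, had levels of 1.37 and 0.91 against 1.18 and 1.24, with overlap, and a difference of -0.07 ± 0.20 (limma adjusted p = 0.815). On mm9 the 4 metallothionein probes lie in the order Mt4, Mt3, Mt2 and Mt1 along chromosome 8, from position 96662155 to 96704224. The probes of Mt1 and Mt2 share no run of bases longer than 7 of 60.

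The bases before the start of Mt1, Mt2, Mt3 and Slc30a1 are shown. Mt1, Mt2 and Slc30a1 are known Mtf1 targets and the genes that rose with a RefSeq window. Mt3 is the tested neighbour that did not rise. Sequences are from RefSeq on GRCm38.p6, plus strand, 250 bases each, and capitals mark TGCACNC or TGCGCNC, the core of the metal response element, searched on both strands. The windows are chr8:94178839-94179088 for Mt1, chr8:94172368-94172617 for Mt2, chr8:94152357-94152606 for Mt3 and chr1:191906531-191906780 for Slc30a1.
Mt1: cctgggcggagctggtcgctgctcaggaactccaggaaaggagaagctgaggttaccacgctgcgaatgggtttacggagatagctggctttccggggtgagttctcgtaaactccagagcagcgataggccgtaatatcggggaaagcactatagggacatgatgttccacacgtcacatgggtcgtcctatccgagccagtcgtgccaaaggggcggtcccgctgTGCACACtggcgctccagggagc
Mt2: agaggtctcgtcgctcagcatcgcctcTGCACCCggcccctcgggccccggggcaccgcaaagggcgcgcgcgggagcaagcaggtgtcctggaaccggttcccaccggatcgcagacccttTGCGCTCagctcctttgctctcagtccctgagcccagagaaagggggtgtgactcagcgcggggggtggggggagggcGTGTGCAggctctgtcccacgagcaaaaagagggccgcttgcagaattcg
Mt3: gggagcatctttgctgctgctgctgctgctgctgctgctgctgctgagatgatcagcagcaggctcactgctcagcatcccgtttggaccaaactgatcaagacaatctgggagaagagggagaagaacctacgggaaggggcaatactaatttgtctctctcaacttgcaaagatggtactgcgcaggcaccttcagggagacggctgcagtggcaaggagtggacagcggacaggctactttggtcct
Slc30a1: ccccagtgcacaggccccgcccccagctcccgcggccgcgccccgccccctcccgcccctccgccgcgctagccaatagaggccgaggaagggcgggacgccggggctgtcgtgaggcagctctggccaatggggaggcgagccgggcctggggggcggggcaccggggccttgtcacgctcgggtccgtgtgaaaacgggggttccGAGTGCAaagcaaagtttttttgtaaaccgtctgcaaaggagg

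Mt2 held 3 matches, Mt1 and Slc30a1 held 1 each, and Mt3 held 0 in these windows. Extending the search to the 50 bases after the start gave 4 for Mt2, 3 for Mt1, 2 for Slc30a1 and 1 for Mt3. Over the 32851 RefSeq windows of the same length, 21.4% held at least 1 match and 1.26% held at least 3. Of the 37 genes, 31 were found in the RefSeq table, with 36 windows, and 17 of these genes, or 54.8%, held a match in at least 1 window. That share is per gene, and 5 genes had more than 1 window, while the 21.4% is per window. Among genes with a window, a match was found in 3 of 3 that rose, 4 of 11 that fell and 5 of 9 that did not pass the test. The 3 that rose are the known Mtf1 targets Mt1, Mt2 and Slc30a1, while Slc39a4 and Slc40a1 rose and had no window. These counts therefore cannot link a rise to a match. A match describes letters and not a bound site, and the count depends on where the annotated start lies.

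**Figure D3:**
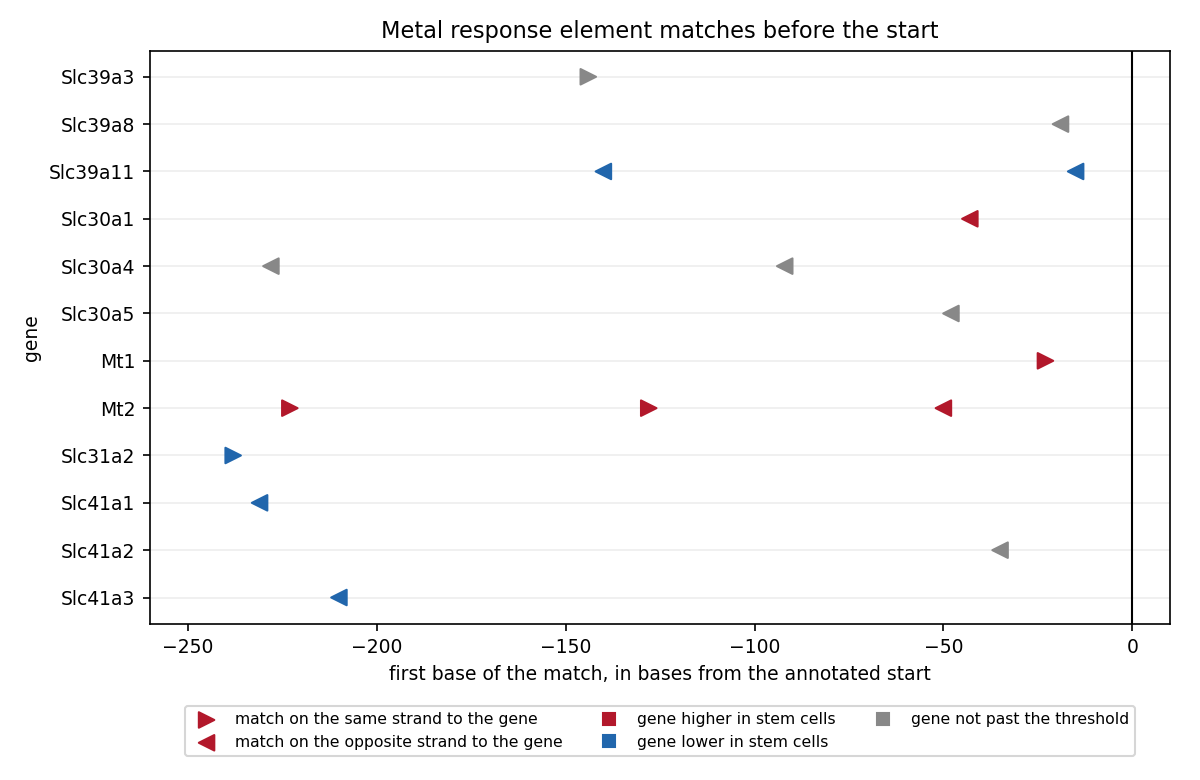
Position of each metal response element match in the 250 bases before the start of tested genes, in bases from the start (horizontal axis), with arrowheads for the strand and colours for the call. Mt2 holds 3 matches and Mt1 and Slc30a1 hold 1 each, and the 2 matches of Slc39a11 come from windows of different starts.

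The iron transporters moved in opposite directions. Slc40a1 (ferroportin), the iron exporter, had levels of 1.14 and 1.26 in stem cells against 0.14 and 0.16 in non-stem cell epithelia. Slc11a2 (DMT1), the importer of ferrous iron at endosomes and the plasma membrane, had levels of 0.31 and 0.35 against 1.64 and 1.39. In each case the pairs were tight and did not overlap. Slc40a1 rose by 1.05 ± 0.15 (2.07-fold, limma adjusted p = 0.0065) and Slc11a2 fell by 1.18 ± 0.16 (2.26-fold, limma adjusted p = 0.0060). The probes lie at chr1:45965255-45965314 and chr15:100218333-100218392 (mm9). A dimmer Slc11a2 probe at chr15:100240516-100240575 had levels of -2.02 and -1.97 against -1.62 and -2.26, with overlap and a difference of -0.05. The mean of both probes did not pass. Without non-stem cell epithelia replicate 1 the adjusted limma p was 0.054 for Slc11a2 and 0.058 for Slc40a1, and without replicate 2 it was 0.064 for Slc40a1, whose unscaled signals overlapped (75.1 and 117 against 92.9 and 79.5) and which read 0.47 with normexp and turned to -1.20 on the spike-in scale.

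Ferroportin works with copper-bound ferroxidases that oxidise the exported iron. Of those listed, Cp and Heph rose in stem cells, while Hephl1 was well above background on no array and was not tested. Cp (ceruloplasmin) had levels of 2.07 and 2.18 in stem cells against -1.07 and -1.25 in non-stem cell epithelia, and it rose by 3.29 ± 0.16 (limma adjusted p = 0.00032). Heph (hephaestin) had levels of 1.09 and 1.40 against -1.49 and -1.50, and it rose by 2.74 ± 0.17 (limma adjusted p = 0.00059). Neither pair of groups overlapped. Tfrc, the transferrin receptor that takes iron up, rose by 1.07 ± 0.18 (limma adjusted p = 0.011), a call lost without non-stem cell epithelia replicate 2 (0.088) and with the mean of its probes. On the spike-in scale Cp read 1.04 and Heph 0.49, which did not pass (0.243), while Tfrc turned to -1.18, and with normexp the 3 read 1.76, 1.29 and 0.50. Of the iron storage chains, Ftl1 differed by -0.52 ± 0.15 (limma adjusted p = 0.049), a call lost when any 1 array was left out (0.071 to 0.196), and Fth1 differed by 0.29 (limma adjusted p = 0.193).

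Over the whole iron list of 32 genes, 20 were tested, 4 rose and 3 fell, with a median of 0.05, where 31.1% of all genes tested passed. The other genes past the threshold were Fbxl5, the iron-sensing subunit of a ubiquitin ligase, at -1.32 (limma adjusted p = 0.0048), Slc25a28, a mitochondrial iron carrier, at -0.82 (0.013), and the endosomal ferrireductase Steap3 at 0.88 (0.043). Fbxl5 lost its call without non-stem cell epithelia replicate 2 (0.057), Slc25a28 without replicate 1 or 2 of that group (0.075 and 0.098) and Steap3 without those arrays or stem cells replicate 1 (0.071 to 0.189) and with normexp (difference 0.36). Of 11 genes of haem handling 10 were tested, with 1 higher, 3 lower and a median of -0.04, again beside 31.1% of all genes tested. Flvcr2, a haem and choline transporter listed on the array as Mfsd7c, fell by 2.15 ± 0.27 (limma adjusted p = 0.0047), and Hp, which binds free haemoglobin, rose by 0.72 ± 0.15 (0.018). Slc46a1, a folate and haem transporter, and Slc48a1, which exports haem from lysosomes, differed by -0.60 and -0.63 (0.032 and 0.035). Each of the 4 lost its call without non-stem cell epithelia replicate 1 or 2 (adjusted limma p of 0.054 to 0.159), and Slc46a1 and Slc48a1 also without stem cells replicate 1 and with the replicate block (0.064 and 0.059). With normexp Hp read 0.22 and did not pass (0.284). The haemoglobin genes of red cells fell in the same samples, with differences of -2.06 to -2.23, and their part in these results was not tested.

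Both Slc31a copper transporters fell. Slc31a1 (Ctr1), the high-affinity copper importer, had levels of 3.29 and 3.49 in stem cells against 4.66 and 4.59 in non-stem cell epithelia. Slc31a2 (Ctr2), which acts on copper in endosomes and lysosomes, had levels of 1.71 and 1.67 against 3.87 and 4.09. The stem cell arrays were the lower pair for each gene, with no overlap. Slc31a1 fell by 1.24 ± 0.16 (2.35-fold, limma adjusted p = 0.0049) and Slc31a2 fell by 2.29 ± 0.16 (4.88-fold, limma adjusted p = 0.00078), where a dimmer Slc31a2 probe gave -3.32. The genes are neighbours on chromosome 4, with probes at chr4:62052725-62052784 and chr4:61959089-61959148. Slc31a1 lost its call narrowly without non-stem cell epithelia replicate 1 or 2 (adjusted limma p of 0.052 and 0.056), and Slc31a2 kept its call with any array left out.

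Of 12 other copper genes listed, 10 were tested, 0 rose and 1 fell by limma with adjustment (31.1% of all genes tested passed), 4 had an unadjusted p under 0.05, and the median was -0.08. The gene that fell was Cutc, which binds copper, at -0.71 ± 0.18 (limma adjusted p = 0.038), a call lost without non-stem cell epithelia replicate 1 or 2 (0.172 and 0.143), without stem cells replicate 2 (0.085) and with normexp (difference -0.11). Atp7a, the ATPase that pumps copper into the Golgi and out of the cell, had levels of 2.04 and 2.42 in stem cells against 2.85 and 2.82 in non-stem cell epithelia. Its difference of -0.61 ± 0.19 did not pass (limma adjusted p = 0.058), and its liver-type relative Atp7b was not well above background on at least 2 arrays.

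**Figure D4:**
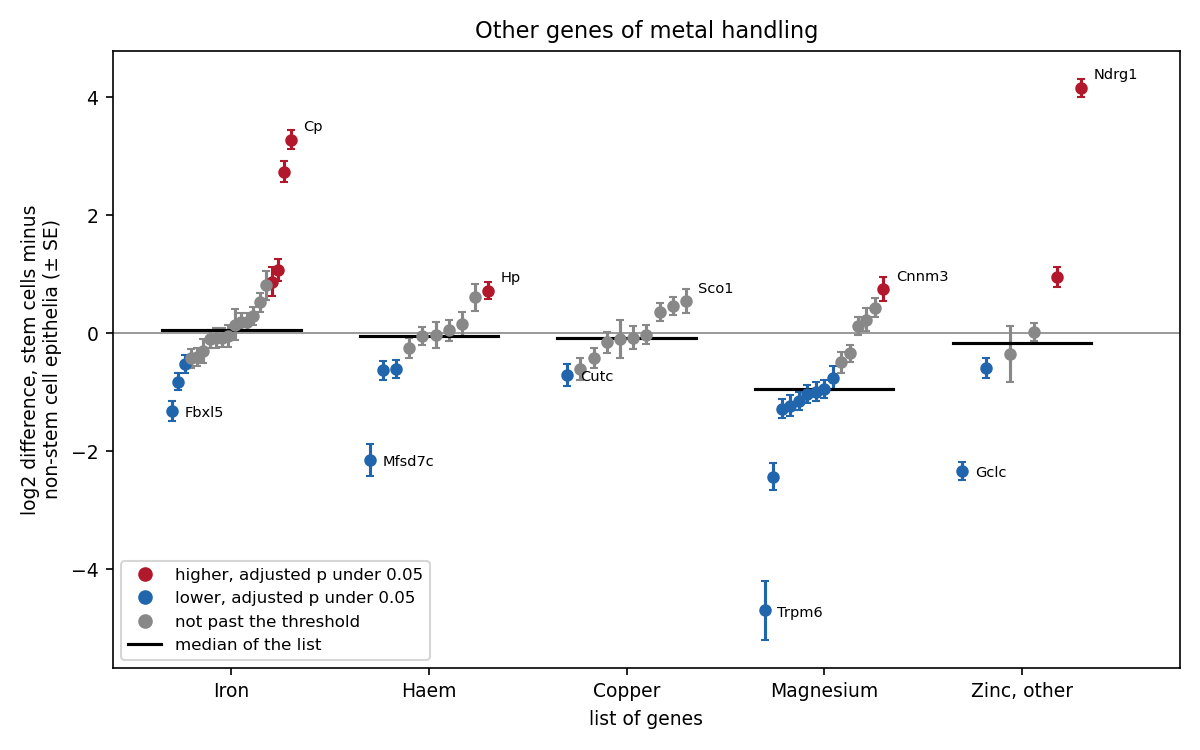
Difference between stem cells and non-stem cell epithelia for each tested gene of the 5 lists of other metal handling genes, on the log2 scale (vertical axis), with bars of 1 SE and black lines at the list medians. The magnesium median is at -0.94 and the other 4 medians lie between -0.16 and 0.05, while Cp and Ndrg1 lie above 3.

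Of the magnesium transporters, Slc41a1 and Slc41a3 fell. Slc41a1, which exports magnesium across the plasma membrane, had levels of 0.45 and 0.41 in stem cells against 1.08 and 1.44 in non-stem cell epithelia. It fell by 0.83 ± 0.18 (limma adjusted p = 0.023). Slc41a3, described in mitochondria, was well above background on no stem cell array, with levels of -2.40 and -2.78 there and -1.87 and -1.29 on the non-stem arrays. Its fitted difference was -1.01 ± 0.25 (limma adjusted p = 0.034), which the bound puts at least 1.64-fold lower. Slc41a2 had levels of 0.18 and 0.35 against -0.20 and 0.28, with overlap, and differed by 0.23 ± 0.21 (limma adjusted p = 0.451). The calls of Slc41a1 and Slc41a3 were lost without non-stem cell epithelia replicate 1 or 2 (adjusted limma p of 0.058 and 0.128, and of 0.062 and 0.170) and when the percentile was taken over detected probes. With normexp Slc41a3 read 0.035.

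Most other magnesium genes past the threshold were lower. Of 19 listed genes 15 were tested, 1 rose and 9 fell, with a median of -0.94, against 31.1% past the threshold and a median of -0.01 over all genes. Trpm6 and Cnnm1 passed the filter through the non-stem arrays alone, so the count is given as a description. The gene that rose was Cnnm3, at 0.75 (limma adjusted p = 0.045), a call lost without stem cells replicate 1 or either non-stem array (0.092 to 0.201) and with normexp (difference 0.26). Trpm6, an epithelial magnesium channel, had levels of -3.95 and -2.38 in stem cells, on neither array well above background, and 1.63 and 1.45 in non-stem cell epithelia. It was at least 12.4-fold lower (limma adjusted p = 0.0026), and Cnnm1, of the family of magnesium transport mediators, at least 1.69-fold lower (limma adjusted p = 0.0018). Trpm7, the related channel found in most cells, had levels of 2.58 and 2.67 against 2.61 and 2.17, with overlap, and did not pass (difference 0.23, limma adjusted p = 0.415).

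Nipal3, a magnesium transporter relative, fell by 1.28 ± 0.16 (limma adjusted p = 0.0040). Magt1 and Tusc3 carry magnesium in some assays and are also subunits of the complex that attaches N-glycans to proteins. They fell by 1.15 ± 0.16 and 1.03 ± 0.15 (adjusted limma p of 0.0056 and 0.0063). Cnnm4, a basolateral magnesium transporter of epithelia, differed by -0.76 ± 0.20 (limma adjusted p = 0.038). Of these genes, Trpm6, Magt1, Tusc3 and Cnnm4 lost their calls without non-stem cell epithelia replicate 2 (0.051 for Trpm6, 0.058 for Magt1, 0.063 for Tusc3 and 0.092 for Cnnm4), and Magt1, Tusc3 and Cnnm4 also without replicate 1 of that group (0.056, 0.055 and 0.169). With normexp Cnnm1 read -0.09 and Trpm6 -1.79. Of 8 acinar markers 5 fell and 1, Smr3a, rose in the same samples, while Prol1 and Dcpp3 did not pass. The part of these markers in the magnesium results was not tested.

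Genes that respond to Mtf1 or handle zinc in other ways moved in both directions. Of 9 listed genes 6 were tested, 2 rose and 2 fell, with a median of -0.16, beside 31.1% of all genes tested that passed. Ndrg1, a stress and hypoxia response gene, had levels of 2.44 and 2.41 in stem cells against -1.68 and -1.81 in non-stem cell epithelia. It rose by 4.17 ± 0.15 (limma adjusted p = 0.00020). Gclc, which makes the first step of glutathione synthesis, had levels of 2.44 and 2.47 against 4.86 and 4.72 and fell by 2.33 ± 0.15 (limma adjusted p = 0.00062). Csrp1, a LIM domain protein, differed by 0.95 (limma adjusted p = 0.013) and Mcoln1, a lysosomal cation channel, by -0.59 (0.046). Csrp1 and Mcoln1 lost their calls without non-stem cell epithelia replicate 1 (0.060 and 0.186) or 2 (0.098 and 0.141), and Mcoln1 also without stem cells replicate 1 (0.123) and with the replicate block (0.078). With normexp Ndrg1 read 2.07 and Csrp1 0.38, which did not pass (0.143), and on the spike-in scale they read 1.92 and -1.30. Of the 26 genes past the threshold on the 5 lists, 6 kept the call whichever array was left out: Cp, Heph, Cnnm1, Nipal3, Ndrg1 and Gclc. Of these, Cnnm1 was well above background on no stem cell array, and with normexp it read -0.09 and did not pass (limma adjusted p = 0.637). Of the 8 list genes that rose, 5 turned negative on the spike-in scale. Quantile normalization ended the calls of Steap3, Cnnm3, Cnnm4 and Mcoln1, the percentile over detected probes those of Ftl1, Steap3, Slc46a1, Cutc, Cnnm4 and Mcoln1, the mean of probes those of Tfrc, Steap3 and Cnnm3, and the intensity trend that of Cutc.

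Among the 18 transporter and metallothionein genes past the threshold, 6 kept the call whichever array was left out: Slc39a4, Slc39a7, Slc39a11, Slc30a7, Slc31a2 and Mt2. The others lost it with at least 1 array left out, 11 genes without non-stem cell epithelia replicate 1 and 11 without replicate 2. A fit without an array leaves 1 array in that group, which is then assumed to vary like the other group. Testing all 36163 genes with no filter on dim probes also ended 12 of the 18 calls.

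**Figure D5:**
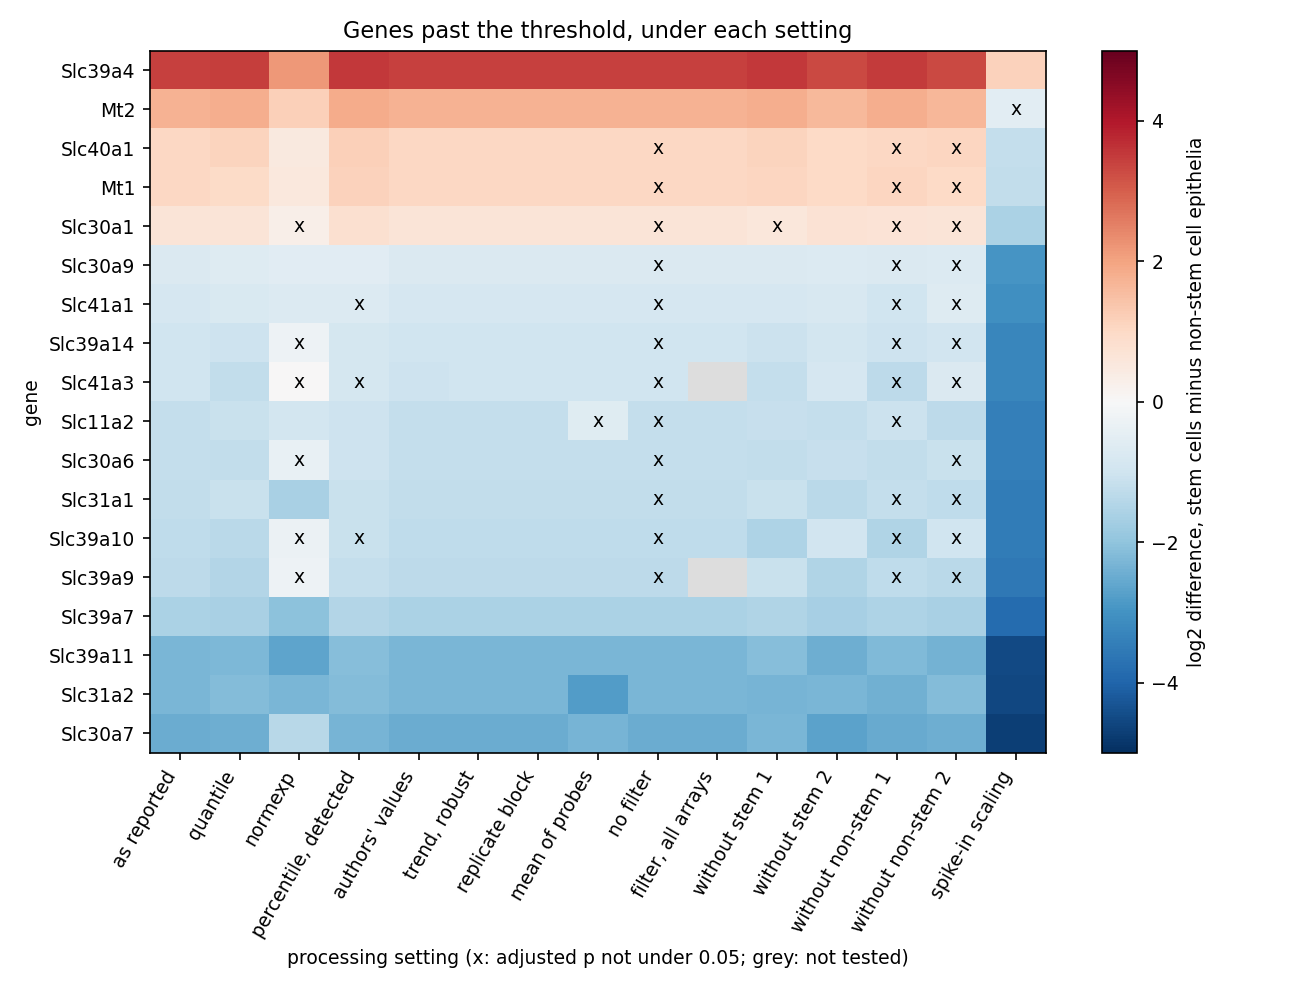
Difference between stem cells and non-stem cell epithelia (colour, log2 scale) for the 18 genes past the threshold under each setting, with a cross where the adjusted limma p was 0.05 or more and grey where the gene was not tested. Slc39a4 stays positive and the 13 lower genes stay negative in all columns except Slc41a3 with normexp, while Mt1, Mt2, Slc40a1 and Slc30a1 turn negative on the spike-in scale.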

How the data were processed

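Each deposited scanner file gives a linear intensity per spot, written by Agilent Feature Extraction 10.7.3.1 per the file headers. The submitters' processing notes name version 9.1, a difference not resolved here. The deposited series table holds log2 values by the authors with an unstated centring. Its differences between arrays correlated at 1 with those used here, and its column medians were -0.27 and -0.55 (stem cells) and -0.83 and -0.75 (non-stem cell epithelia). Of the 59305 non-control spots, spots with outlier marks were left out. Log2 of the background-corrected signal was shifted by each array's 75th percentile and averaged over the spots of a probe.

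A gene was its brightest probe and was tested when 2 or more of the 4 arrays had that probe well above background. The test was limma 3.58.1 in R 4.3.3 (lmFit, eBayes, two-sided, 5.47 degrees of freedom), adjusted by Benjamini-Hochberg over 17306 genes, and the script was tested on simulated data. The small number of arrays limits the precision. From 35.7% to 42.3% of spots per array were well above background and 0 were saturated. Replicates correlated across genes at 0.986 and 0.992, and arrays of different groups at 0.923 to 0.935. Where a group had no array well above background, the fold is a bound: the brighter group's mean against the higher, per dim array, of its own signal and the dimmest signal well above background.

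The genes and lists were chosen with earlier results of these data known. Values per array are given for genes past the threshold with a log2 difference of at least 1 in size, for bounds of at least 2-fold and for 8 genes chosen by name, and from each list for up to 5 genes of smallest p and a few fixed ones. Steap3 and Cnnm3, and the single markers named, were picked with their values in view. The probe's RefSeq accession carried the array's symbol for 37 of 37 genes. Probe coordinates are the scanner files' on mm9, and the exon or UTR under a probe was not analysed here. The labels do not state whether the same replicate number marks paired samples. Across genes, the deviations of stem cells replicate 1 and non-stem cell epithelia replicate 1 from their group means correlated at -0.10. With 2 arrays per group this cannot decide whether samples were paired. The alternatives are in the closing section.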

Additional observations from a re-analysis of the deposited data

How the results depend on the processing

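All genes past the threshold numbered 5387, with 5 higher and 13 lower among the metal handling genes. Without a filter on dim probes the counts were 1564, 2 and 4, and with a 2-fold minimum the count over all genes was 2870. Leaving out 1 array gave 1349 to 6624 over all genes, 2 to 5 higher and 5 to 14 lower. Spike-in scaling, chosen after seeing the data, gave 16763, 1 and 26. On that scale differences turned to -1.60 (Slc30a1), -1.20 (Slc40a1), -2.02 (Slc41a2), -1.22 (Mt1), -0.52 (Mt2), -2.19 (Mtf1) and -2.16 (Slc39a6). Higher genes made up 46.3% of all calls, 25.2% with normexp, 59.4% with the percentile over detected probes and 0.805% with spike-in scaling. The median of all genes shifted to 0.13 with the detected percentile, -2.25 with spike-ins and 0.43 with no filter. With the replicate block 5277 genes passed, with 5 higher and 13 lower among the metal handling genes. The block ended 4 of the 26 calls on the lists, Ftl1 (limma adjusted p = 0.105), Slc46a1 (0.064), Slc48a1 (0.059) and Mcoln1 (0.078), and none of the 18 transporter and metallothionein calls. Crossed numbers, chosen after seeing the data, gave 4424, 4 and 13. With normexp Slc41a3, called lower at -1.01, turned to 0.035. Genes that had not passed also changed sign: Slc39a6 to -0.063 and Slc39a8 to 0.00074 with normexp, and with quantile normalization and the detected percentile Mt3 to 0.031 and 0.065 and Slc39a1 to 0.062 and 0.11. With 1 array left out the ranges were -0.014 to 0.47 for Slc41a2, -0.30 to 0.16 for Mt3, -0.17 to 0.11 for Slc39a1 and -0.044 to 0.23 for Slc39a6. Normexp ended 6 of the 18 calls, in Slc30a1, Slc30a6, Slc41a3, Slc39a9, Slc39a10 and Slc39a14, and 6 of the 26 on the lists, and no filter ended 12 and 19. The cause of these changes was not tested. Dim probes limit what can be read for these genes.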
